A study of Mus musculus with 140 samples.

Results

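The fully repeat-masked silencers are the autosomal intervals of 200 bp or more, in the silencer lists of 2 mouse cell types, in which every base is soft-masked, that is written in lower case, in mm10 (GRCm38). Of the 48180 autosomal intervals of that length in the list from mouse embryonic fibroblasts (MEFs), 2435 met the rule, and of the 63577 in the list from mouse embryonic stem cells (mESCs), 3688 did. Together these 6123 members stood among 204761 intervals listed in all, 89596 for MEFs and 115165 for mESCs. The rule used the sequence alone and not the measured folds.

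The study screened the mouse genome for silencers by Ss-STARR-seq, a reporter assay in which genomic fragments of 300 to 400 bp are cloned into a plasmid and the RNA made from the plasmids is sequenced. The 140 libraries comprised 20 of the plasmid input, 64 of reporter RNA from MEFs and 56 of reporter RNA from mESCs. MEFs are fibroblasts grown with serum, mESCs are pluripotent cells kept in 2i/LIF medium, and the labels used here name no genotype, strain or treatment of either. The lists hold no expression values, so the cell types were not checked against marker genes. The deposited lists hold 1 fold per interval and cell type, with no value per library, no count and no error, so the depth behind a fold is unknown, none of the values below has a replicate check, and intervals are not replicates of a cell type.

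Soft-masked sequence is made mostly of transposable elements: LINEs and LTR elements, which copy themselves through RNA made by RNA polymerase II, and SINEs, short elements whose RNA is made by RNA polymerase III from an internal promoter of an A box and a B box. Silencers are sequences that lower the transcription of a linked promoter, and cells keep many transposons silent through DNA methylation, repressive histone methylation and KRAB zinc finger proteins that recruit TRIM28 and SETDB1. Copies of an element are alike, so short reads from one copy can be placed on another. In a reporter plasmid the fragment is also outside its chromosomal surroundings.

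The sequences with the highest folds show what such a silencer looks like. The following 8 members are 4 of the 5 with the highest fold in the MEF list, 3 of the 5 in the mESC list, and last the MEF member with the highest copy number; they are read 5′ to 3′ on the plus strand of GRCm38 (RefSeq), and capitals mark bases that lie in a 31-base word (31-mer) found at 1 place in the assembly.

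MEF list, chr5:8372301-8372551: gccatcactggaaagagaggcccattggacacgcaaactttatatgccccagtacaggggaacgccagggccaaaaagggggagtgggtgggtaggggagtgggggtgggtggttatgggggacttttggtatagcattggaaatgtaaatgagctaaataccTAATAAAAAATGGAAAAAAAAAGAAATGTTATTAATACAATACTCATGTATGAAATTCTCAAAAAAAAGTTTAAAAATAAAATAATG
MEF list, chr4:80633221-80633421: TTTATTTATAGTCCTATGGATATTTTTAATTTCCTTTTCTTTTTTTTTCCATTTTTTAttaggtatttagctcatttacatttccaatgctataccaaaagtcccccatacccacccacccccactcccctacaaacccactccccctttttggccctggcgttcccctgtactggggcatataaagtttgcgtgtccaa
MEF list, chr4:104628241-104628491: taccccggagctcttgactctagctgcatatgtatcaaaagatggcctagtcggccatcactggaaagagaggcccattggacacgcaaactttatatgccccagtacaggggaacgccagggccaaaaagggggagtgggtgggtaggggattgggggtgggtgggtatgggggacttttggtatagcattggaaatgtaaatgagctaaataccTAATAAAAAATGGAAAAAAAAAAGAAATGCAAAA
MEF list, chr1:6366901-6367201: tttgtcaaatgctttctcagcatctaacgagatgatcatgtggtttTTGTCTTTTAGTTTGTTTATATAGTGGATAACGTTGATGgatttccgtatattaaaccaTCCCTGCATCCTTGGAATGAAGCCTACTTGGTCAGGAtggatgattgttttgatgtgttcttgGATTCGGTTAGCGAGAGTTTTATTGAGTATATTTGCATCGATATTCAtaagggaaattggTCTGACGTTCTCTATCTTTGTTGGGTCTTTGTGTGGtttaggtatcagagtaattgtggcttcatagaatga
mESC list, chr1:136702251-136702551: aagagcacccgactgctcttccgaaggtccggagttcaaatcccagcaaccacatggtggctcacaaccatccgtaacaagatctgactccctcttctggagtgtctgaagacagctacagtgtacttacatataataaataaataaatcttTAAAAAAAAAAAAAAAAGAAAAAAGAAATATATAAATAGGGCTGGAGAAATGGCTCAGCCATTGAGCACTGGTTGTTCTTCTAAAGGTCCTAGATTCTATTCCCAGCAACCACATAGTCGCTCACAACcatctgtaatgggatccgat
mESC list, chr2:176818054-176818304: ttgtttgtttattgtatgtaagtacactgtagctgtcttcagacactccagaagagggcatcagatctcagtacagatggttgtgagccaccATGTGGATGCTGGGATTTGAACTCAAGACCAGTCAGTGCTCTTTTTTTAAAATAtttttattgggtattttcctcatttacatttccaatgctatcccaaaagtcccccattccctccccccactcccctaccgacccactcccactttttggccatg
mESC list, chr11:101132403-101132703: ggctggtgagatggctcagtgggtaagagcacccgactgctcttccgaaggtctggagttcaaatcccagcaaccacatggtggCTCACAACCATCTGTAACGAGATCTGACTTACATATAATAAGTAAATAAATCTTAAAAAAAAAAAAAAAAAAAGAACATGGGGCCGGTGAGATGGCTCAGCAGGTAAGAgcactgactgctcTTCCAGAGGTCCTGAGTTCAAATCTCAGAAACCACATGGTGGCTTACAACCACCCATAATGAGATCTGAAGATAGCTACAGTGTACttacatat
MEF list, chr7:138839426-138839626: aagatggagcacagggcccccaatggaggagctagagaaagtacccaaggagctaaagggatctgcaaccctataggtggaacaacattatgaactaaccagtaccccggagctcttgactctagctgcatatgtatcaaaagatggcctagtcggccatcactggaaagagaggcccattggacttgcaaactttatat

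The highest fold in the MEF list, 84.4, belonged to the intergenic member at chr5:8372301-8372551, 4.1 kb from Adam22, which encodes a neuronal membrane protein. Of its 31-mers, 24.5% occurred at 1 place, and the median 31-mer occurred 6941 times. An interval of the mESC list over the same site, chr5:8372215-8372515, had a fold of 14.5. The next member, chr4:80633221-80633421, had an MEF fold of 49.0 and was 201 kb from Tyrp1, a gene of pigment synthesis; the mESC interval over it was listed at 3.06. The third, chr4:104628241-104628491, was listed at 23.6 for MEFs and at 17.6 for mESCs, in an intron of Dab1, an adaptor protein of reelin signalling. In these 3 loci the same stretch recurred: chr5:8372301 aligned with chr4:104628241 over 192 bp at 98.4% identity and with chr4:80633221 over 165 bp at 98.2%. The 3 loci, on chromosomes 4 and 5, thus shared most of their sequence. The next members of the MEF list by fold were 2 other repeats, chr1:6366901-6367201 in an intron of Alkal1 (fold 20.4) and the 400-bp member chr1:127742601-127743001 in an intron of Acmsd (fold 16.8), and in both every 100-mer occurred at 1 place.

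In the mESC list the highest fold was 116.5, at chr1:136702251-136702551 in an intron of Platr22, a long noncoding RNA gene, and the overlapping MEF interval had 5.99. The second, chr2:176818054-176818304, had 81.3 in mESCs and 11.3 in MEFs and lay 6.83 kb from Gm14295. The third, chr1:117721741-117722089 in an intron of Gm28363, had a fold of 62.3, no 31-mer that occurred at 1 place, and no overlapping MEF interval. The fourth was chr11:101132403-101132703, 5.98 kb from Tubg1, a gamma-tubulin gene, with a fold of 37.9. It was followed by chr2:114242383-114242633, 40.9 kb from Zfp770, with a fold of 24.4. Neither of these had an overlapping interval in the MEF list. The repeat of the top 3 MEF members recurred here too: chr2:114242383 aligned with chr4:104628241 over 228 bp at 91.7% identity, and part of chr2:176818054 aligned with the same member over 123 bp at 85.4%. So 5 of these 10 members, the 5 with the highest folds in each list, held a copy of this repeat or of part of it. A fold at such a site is the authors' value for the listed coordinates, and which copy gave the reads was not tested.

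Wholly masked intervals made up a smaller share of each list than of genome windows of the same lengths. Members made up 5.05% of the MEF intervals of 200 bp or more (exact Clopper-Pearson 95% interval, 4.86 to 5.25) and 5.8% of the mESC intervals (5.62 to 5.99), and these intervals cover counting error only. Of all autosomal windows of the same lengths, 7.72% and 7.66% were fully masked, which gave ratios of 0.655 and 0.757. The gap widened with length. Among MEF intervals of 200 to under 250 bp, 7.82% were members against 9.23% of windows, a ratio of 0.847, and among those of 500 bp or more 1.42% were members against 5.56% of windows, a ratio of 0.256. In the mESC list the ratio went from 0.932 in the shortest class to 0.438 in the longest.

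**Figure D1:**
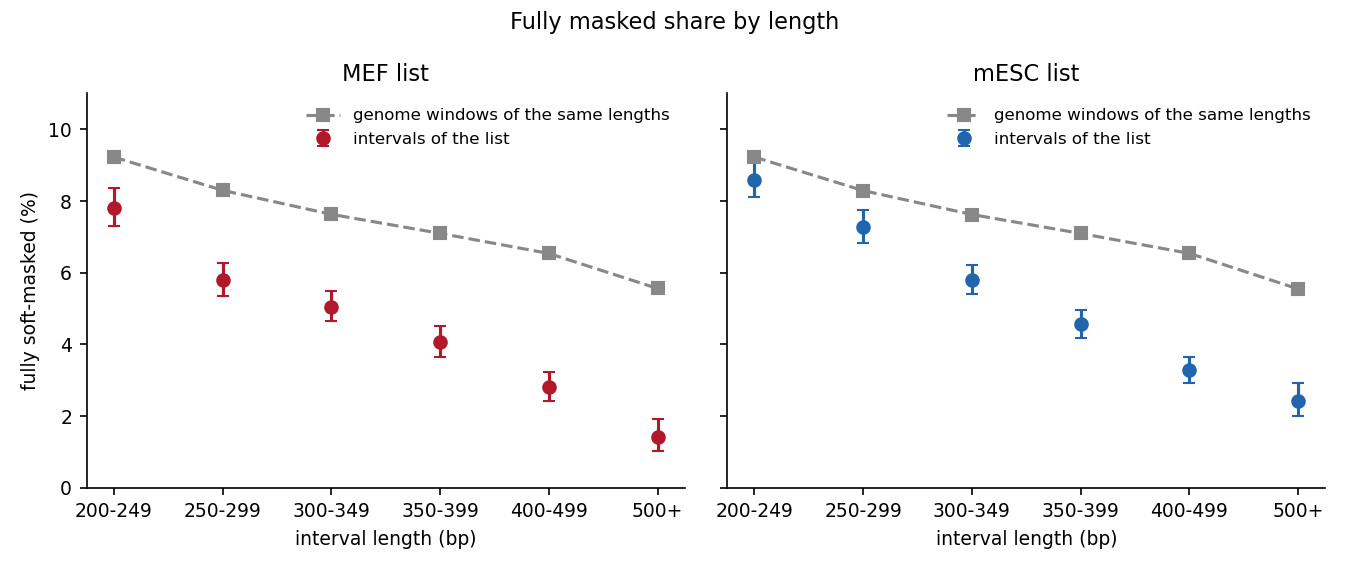
Percentage of intervals that were fully soft-masked (y axis) by interval length in bp (x axis) in the MEF list (left) and the mESC list (right), with exact 95% binomial intervals; squares give the share of all autosomal windows of the same lengths. In each list the share lies below that of the windows in all 6 length classes, and the distance grows with length, from a ratio of 0.847 to 0.256 for MEFs and from 0.932 to 0.438 for mESCs.

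The members were spread over all 19 autosomes, at 1.01 ± 0.10 members per Mb in the MEF list and 1.52 ± 0.19 in the mESC list (SD over 19 autosomes). Their median length was 250 bp in MEFs and 288 bp in mESCs, and the masked stretches that held them were longer, with medians of 1158 bp and 1104.5 bp. The longest members were chr3:81812631-81813411 in the MEF list (780 bp, fold 2.57) and chr13:22811801-22812851 in the mESC list (1050 bp, fold 2.52), the latter 2.1 kb from the vomeronasal receptor gene Vmn1r209. The next MEF members by length, chr8:69279224-69280001 and chr1:47383405-47384151, had folds of 2.23 and 2.06. The next mESC members, chr7:3588201-3589151 and chr11:9375749-9376645, had folds of 2.08 and 2.46. All 6 lay between 2.06 and 2.57, near the fold of 2 that every listed value exceeds. GC content was close to that of other intervals in MEFs (medians 40.6% and 40.1%) and above it in mESCs (42.7% and 40.3%). CpG dinucleotides, the sites of DNA methylation, occurred 0.897 times per 100 bp in MEF members and 0.773 times in the other MEF intervals, and 1.07 and 0.770 times in the mESC list.

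The members' folds were higher than those of the other intervals. The median fold was 2.46 in the MEF list (exact order-statistic 95% interval, 2.44 to 2.49) against 2.33 in the other MEF intervals, and 2.52 (2.49 to 2.55) against 2.38 in the mESC list. The member median was the higher one on 19 of 19 autosomes in each list. The difference was small at the median and larger in the upper tail: 226 MEF members (9.28%) had a fold above 4, against 4.03% of the other intervals, and 456 mESC members (12.4%) did, against 6.00%. Folds above 10 were found in 13 MEF members (0.534%, against 0.173% of the other intervals) and 26 mESC members (0.705%, against 0.312%). The lists state neither which libraries were divided by which nor how depth entered, so a fold ranks intervals within its own list, and where the folds of both lists are given for a site they stand side by side with no comparison.

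**Figure D2:**
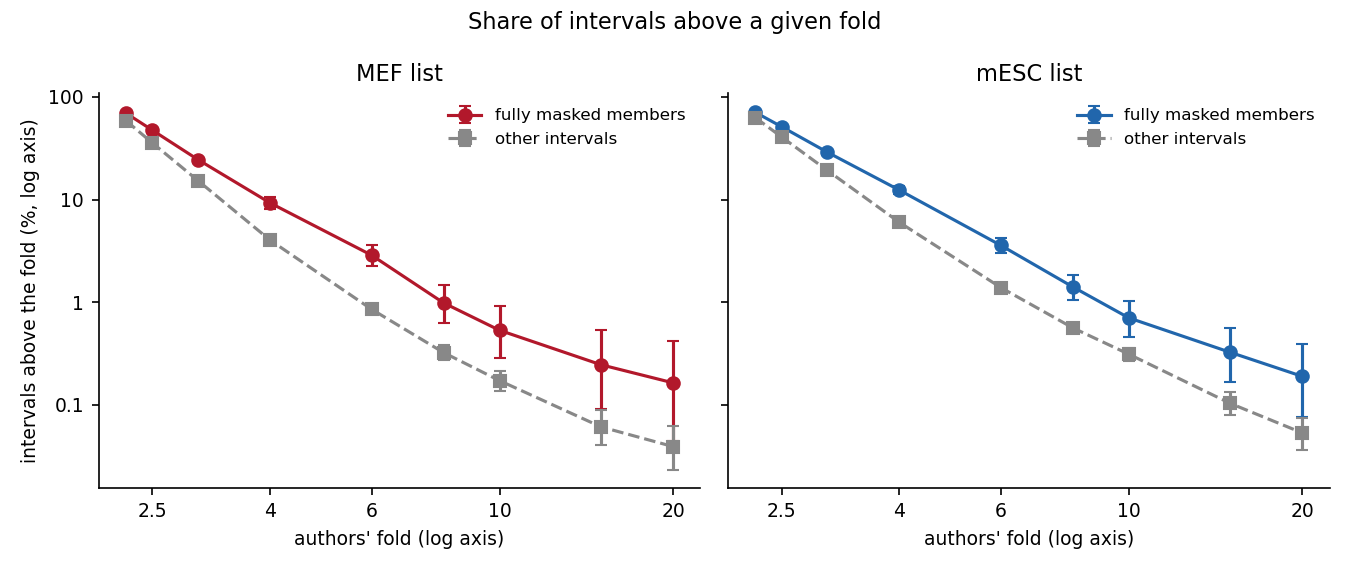
Percentage of intervals with an authors' fold above the value on the x axis (both axes logarithmic) for members (circles) and other intervals (squares) of the MEF list (left) and the mESC list (right), with exact 95% binomial intervals. The member curve lies above the other curve at each fold shown; at a fold of 4 it stands at 9.28% against 4.03% in MEFs and at 12.4% against 6.00% in mESCs.

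Intervals just outside the thresholds of the rule had median folds near those of the members. MEF intervals with 95% to under 100% of their bases masked (n = 1185) had a median fold of 2.405, and the corresponding mESC intervals (n = 1896) had 2.48. Fully masked intervals of 150 to under 200 bp had medians of 2.48 in MEFs (n = 1143) and 2.599 in mESCs (n = 1615). The shorter, fully masked intervals overlapped the other list at 53.3% (50.3 to 56.2) in MEFs and 31.5% (29.2 to 33.8) in mESCs, below the 64.2% and 45.0% of members, and those with 95% to under 100% of bases masked at 65.5% and 45.9%. Intervals of 200 bp or more without any masked base had the lowest of these median folds, 2.28 (n = 4086) and 2.32 (n = 4673).

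The labels name 1 set of plasmid input libraries for both cell types, so an overlap of the lists is a description and not independent support for a site. An interval was counted as present in both lists where intervals overlapped by 1 bp or more. Among all autosomal intervals of 200 bp or more this held for 56.7% of the MEF list and 46.1% of the mESC list. Of the members, 1563 of 2435 in the MEF list (64.2%, 62.2 to 66.1) overlapped an mESC interval, and 1661 of 3688 in the mESC list (45.0%, 43.4 to 46.7) overlapped a MEF interval. The MEF share stood above that of the other MEF intervals (56.2%) on 19 of 19 autosomes, and the mESC share stood near that of the other mESC intervals (46.2%) and above it on 7 of 19. The overlap grew with the fold in both lists. In the lowest fold quintile 47.0% of MEF members and 38.9% of the other MEF intervals overlapped, and in the highest 74.7% and 73.7%. In the lowest mESC quintile 30.96% of members (27.2 to 34.9) overlapped against 29.4% of the other intervals (28.6 to 30.2), and in the highest 54.0% of members (50.9 to 57.0) overlapped against 61.9% of the other intervals (61.0 to 62.8). By length, the mESC member share lay above that of the other intervals in 4 of 6 classes, from 38.5% against 36.3% at 200 to under 250 bp to 57.3% against 53.8% at 500 bp or more, and below it from 300 to under 400 bp. None of these differences was tested, since intervals are not replicates.

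**Figure D3:**
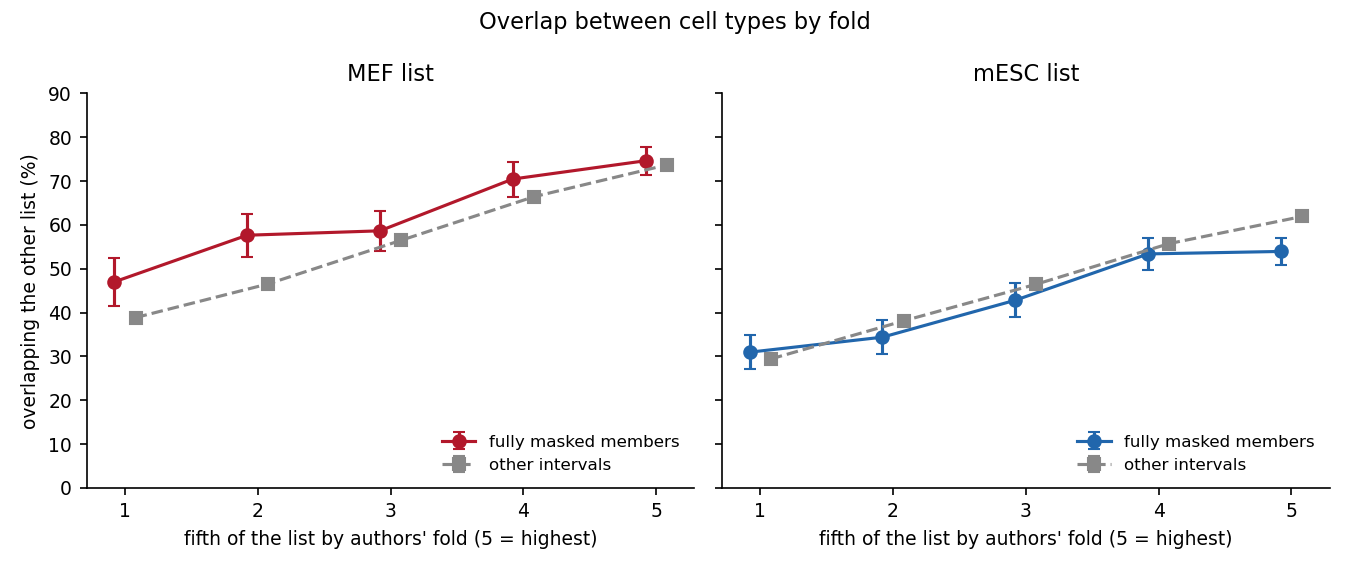
Percentage of intervals that overlapped an interval of the other list by 1 bp or more (y axis) in quintiles of the authors' fold (x axis, 5 highest), for members (circles) and other intervals (squares) of the MEF list (left) and the mESC list (right), with exact 95% binomial intervals. MEF members lie above the other intervals in the lowest quintile (47.0% against 38.9%), and mESC members lie below them in the highest (54.0% against 61.9%).

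At 161 sites a member was listed with identical boundaries for both cell types. These were 6.61% of MEF members and 4.37% of mESC members, against 5.19% and 3.96% of the other intervals. Taken in the order of the lower of the pair of folds, which served only to choose the sites named, the first was chr5:40354116-40354366 (7.71 in MEFs and 15.4 in mESCs), in intergenic sequence 599 kb from Hs3st1. The others were chr1:6366901-6367201 (20.4 and 7.39), chr10:83498071-83498271 in an intron of Aldh1l2, a mitochondrial folate enzyme gene (7.35 and 7.32), chr3:46860001-46860251 (11.6 and 7.09) and chr9:36647401-36647601 (11.2 and 6.88). Of these, the site in Aldh1l2 had the most unique sequence, with 64.1% of its 31-mers at 1 place.

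By copy number the median member stood between other silencers and fully masked genome windows. In the median MEF member 18.8% of 31-mers occurred at 1 place in the assembly (quartiles 8.52 and 33.5), and in the median mESC member 19.4% did (8.26 and 33.7). In the other intervals the medians were 100% and 99.7%, and in 11209 fully masked 200-bp windows taken every 20000 bp along the autosomes, which are shorter than most members, the median was 6.47%. How the mask was made is not given in the sources used here, and repeat finding can rest on copy number itself, so the contrast with other intervals is partly one that the rule may have used. The contrast with masked windows is not. No 31-mer at 1 place was found in 259 MEF members (10.6%, 9.44 to 11.9) and 382 mESC members (10.4%, 9.39 to 11.4), against 42.7% of masked windows (41.7 to 43.6). Members and masked windows were alike in the share with 50% or more of 31-mers at 1 place. It was 9.12% in MEF members, 9.30% in mESC members and 9.22% in masked windows. Over 100-base words the medians were 98.4% and 98.0% in members and 73.3% in masked windows. In 86.7% of MEF members and 85.2% of mESC members 50% or more of the 100-mers occurred at 1 place, against 57.8% of masked windows.

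**Figure D4:**
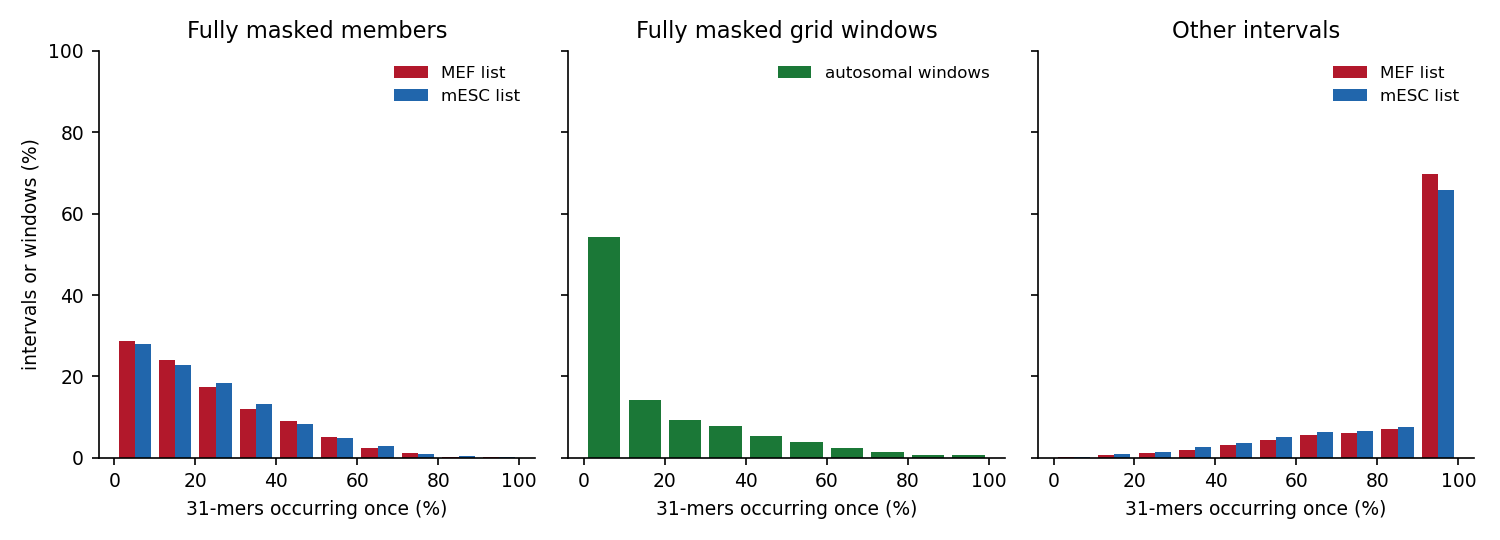
Distribution of the percentage of 31-mers that occur at 1 place in the assembly (x axis, bins of 10%) for members of the MEF and mESC lists (left), fully masked 200-bp autosomal windows (middle) and other intervals of the lists (right); bars give the percentage of intervals or windows in each bin. Members lie mostly below 50%, masked windows pile up in the lowest bin, and other intervals in the highest.

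The windows were also taken as the starting point. Intervals of the MEF list covered 50% or more of 0.660% of the fully masked windows and of 0.879% of the windows that were not fully masked. For the mESC list the shares were 1.204% (1.01 to 1.42) and 1.116%, so by this count masked windows were not the lower there. Among the 3357 masked windows with no 100-mer at 1 place, 1 was covered in the MEF list (0.0298%) and 3 in the mESC list (0.0894%). Among the 4236 masked windows whose every 100-mer occurred at 1 place, 43 were covered in MEFs (1.02%, 0.736 to 1.36) and 77 in mESCs (1.82%, 1.44 to 2.27). For mESCs this last share lay above that of windows not fully masked (1.116%, 1.05 to 1.18), and for MEFs the interval overlapped that of such windows (0.879%, 0.824 to 0.936). The folds of members were also taken by copy number. MEF members without a 31-mer at 1 place had a median fold of 2.57 (2.48 to 2.66, n = 259), and those with over 50% of such 31-mers had 2.43 (2.36 to 2.496, n = 216). The corresponding mESC medians were 2.59 (2.48 to 2.67, n = 382) and 2.599 (2.53 to 2.66, n = 337). By 100-mers, the MEF median was 2.75 (2.45 to 2.99, n = 44) with none at 1 place, 2.602 (2.51 to 2.67, n = 282) with up to 50%, and 2.45 (2.41 to 2.48, n = 1161) with all. The mESC medians were 2.77 (2.52 to 3.17, n = 68), 2.53 (2.47 to 2.66, n = 477) and 2.52 (2.49 to 2.56, n = 1718). Folds above 4 made up 17.6%, 16.1% and 10.9% of these mESC members. In the same MEF classes they made up 9.09%, 12.8% and 9.04%. Members with over 50% but not all had medians of 2.44 in MEFs (n = 948) and 2.49 in mESCs (n = 1425). Among these, folds above 4 made up 8.54% and 12.6%.

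The members with the highest copy number had low folds with 1 exception. In the MEF list chr7:138839426-138839626, in an intron of Mapk1ip1 and printed last above, had a median of 20501.5 occurrences per 31-mer and a fold of 2.24. The others were chr8:101701628-101701828 (17720.5 occurrences, fold 2.23) and chr1:83374956-83375156 (15768.5 occurrences, fold 2.29). In the mESC list the first was chr1:132399001-132399201, whose middle is a repeated 6-base unit, with 26405 occurrences and a fold of 3.35. It was followed by chr13:75513401-75513601 (18018.5 occurrences, fold 2.32) and chr8:102873601-102873801 (17661 occurrences, fold 2.02). No member matched itself at 80% or more of positions when shifted by up to 100 bp. This allows shares of up to 0.123% in MEFs and 0.0813% in mESCs (3 counts of the total). Of 11209 masked windows, 193 matched themselves so (1.72%, 1.49 to 1.98). The other listed intervals were almost free of such matches too, with 7 of 45745 in MEFs (0.0153%) and 7 of 59889 in mESCs (0.0117%). The highest such match was 75.8% in MEF and 79.9% in mESC members, so a member that is a tandem repeat over part of its length is not counted.

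The members fell into a limited number of sequence families. They occupied 4988 distinct loci, of which 4851 (97.3%) were grouped with another locus at 80% identity over 50% or more of the shorter sequence. The 12 largest of 124 groups held 4083 members (66.7%), and the largest alone held 1131. Repeat family names are not used here because no repeat annotation was used, so the groups carry numbers by size. The following sequences are of groups in which a feature stood out: the member of group 1 with the highest fold among those of up to 300 bp, and the central sequences of groups 6, 7 and 9, meaning the member that aligned with the most others. Capitals mark the GCCATNTT match in group 1 and the A box and B box matches in group 9, and groups 6 and 7 have no capitals. The central sequence of group 1, chr13:6053045-6053345, is not printed and holds no GCCATNTT match.

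Group 1, mESC list, chr2:114242383-114242633: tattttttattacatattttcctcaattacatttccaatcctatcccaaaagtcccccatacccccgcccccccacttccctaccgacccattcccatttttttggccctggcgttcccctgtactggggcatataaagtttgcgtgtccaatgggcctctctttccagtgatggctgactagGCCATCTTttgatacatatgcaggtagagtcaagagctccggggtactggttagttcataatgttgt
Group 6, MEF list, chr6:67652415-67652715: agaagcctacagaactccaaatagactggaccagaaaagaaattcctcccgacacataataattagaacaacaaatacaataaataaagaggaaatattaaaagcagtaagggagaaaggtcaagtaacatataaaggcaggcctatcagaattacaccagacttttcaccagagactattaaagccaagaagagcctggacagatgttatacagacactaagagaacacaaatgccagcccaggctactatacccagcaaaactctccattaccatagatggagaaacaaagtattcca
Group 7, mESC list, chr1:30689701-30689901: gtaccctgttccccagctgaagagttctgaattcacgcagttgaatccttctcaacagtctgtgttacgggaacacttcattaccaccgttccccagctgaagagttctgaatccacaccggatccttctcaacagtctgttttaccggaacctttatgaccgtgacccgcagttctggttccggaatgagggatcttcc
Group 9, mESC list, chr11:52120475-52120675: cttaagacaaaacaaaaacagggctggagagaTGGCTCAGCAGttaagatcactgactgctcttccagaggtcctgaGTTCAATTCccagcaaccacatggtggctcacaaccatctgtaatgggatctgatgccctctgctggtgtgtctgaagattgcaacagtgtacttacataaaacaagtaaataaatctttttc

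Group 1 held 390 MEF members and 741 mESC members, 16.0% and 20.1% of each list's members. Of the members with the top 3 MEF folds, only chr4:104628241-104628491 belongs to it. The other MEF members, chr5:8372301-8372551 and chr4:80633221-80633421, aligned with that member but fell in group 15, which is not described here. The mESC member chr2:114242383-114242633 also belongs to group 1. The median folds of group 1 were 2.35 (2.29 to 2.41) in MEFs and 2.46 (2.41 to 2.51) in mESCs. GCCATNTT, a form of the site bound by YY1, a zinc finger protein that can activate or repress, was found in the central 200 bp of 666 of its 1131 members (58.9%). Of the MEF members of the group 72.8% (68.1 to 77.2) overlapped an mESC interval, against 64.2% of all MEF members. Of its mESC members 42.0% (38.4 to 45.6) overlapped a MEF interval, against 45.0%.

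Group 6 had the highest folds of the 12. Its median was 3.03 (2.84 to 3.47) for 77 MEF members and 3.52 (3.162 to 3.73) for 176 mESC members. A fold above 4 was found in 27.3% and 37.5% of them, against 9.28% and 12.4% of all members. Of the MEF members 71 of 77 overlapped an mESC interval (92.2%, 83.8 to 97.1), and of the mESC members 86 of 176 overlapped a MEF interval (48.9%, 41.3 to 56.5). TATAAA, the letters of a TATA box, was found in 160 of 253 (63.2%), against 31.6% of all MEF and 32.6% of all mESC members. Its share was higher in group 11, at 77.1%, and was 53.8% in group 1. By fold, group 8 was at the other end, with medians of 2.247 (n = 78) and 2.29 (n = 111), and folds above 4 in 0 and 2 members.

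The mESC list supplied 60.2% of all members and 56.9% of all autosomal intervals of 200 bp or more, and the groups departed from this to either side. In group 7, 154 of 198 members came from the mESC list (77.8%, 71.3 to 83.4), and in group 6, 69.6% (63.5 to 75.2). In groups 4 and 11 the share was 46.9% (41.5 to 52.4) and 47.1% (38.9 to 55.3). Group 7 was GC-rich, with a median of 49.6%, and GGAATG, the letters of a TEAD site, was found in 107 of its members (54.0%). Group 2 had a like share of GGAATG, 50.7%, against 16.2% of all MEF and 18.0% of all mESC members.

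The copies of each group's central sequence on the autosomes gave a denominator for these counts. A copy was an alignment of 80% identity or more over 50% or more of the central sequence, and it was called covered where listed intervals of any length held 50% or more of it. Of 3580 copies of group 7, 267 were covered in the mESC list (7.46%, 6.62 to 8.37) and 92 in the MEF list (2.57%, 2.08 to 3.142). Of 98228 copies of group 9, 6531 were covered in mESCs (6.65%, 6.49 to 6.81) and 3484 in MEFs (3.55%, 3.43 to 3.66). For all 200-bp grid windows the shares were 1.124% and 0.858%. Group 6, for all its high folds, was covered near the grid share in mESCs, at 1.154% of 25386 copies (1.03 to 1.29). In MEFs it lay below the grid, at 0.563%. Groups 2, 8, 10, 11 and 12 lay below the grid in both lists, with 0.516% to 1.02% in mESCs and 0.408% to 0.751% in MEFs. The copies differed in length, with medians of 116 bp in group 7, 174 bp in group 9, 163 bp in group 3 and 157 bp in group 5. In groups 2, 8, 10, 11 and 12 the medians were 290 to 303 bp, and in group 1 the median was 301 bp. A shorter copy needs fewer covered bases to be counted, and whether length moved these shares was not tested. In each of the 12 groups most copies were in neither list.

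**Figure D5:**
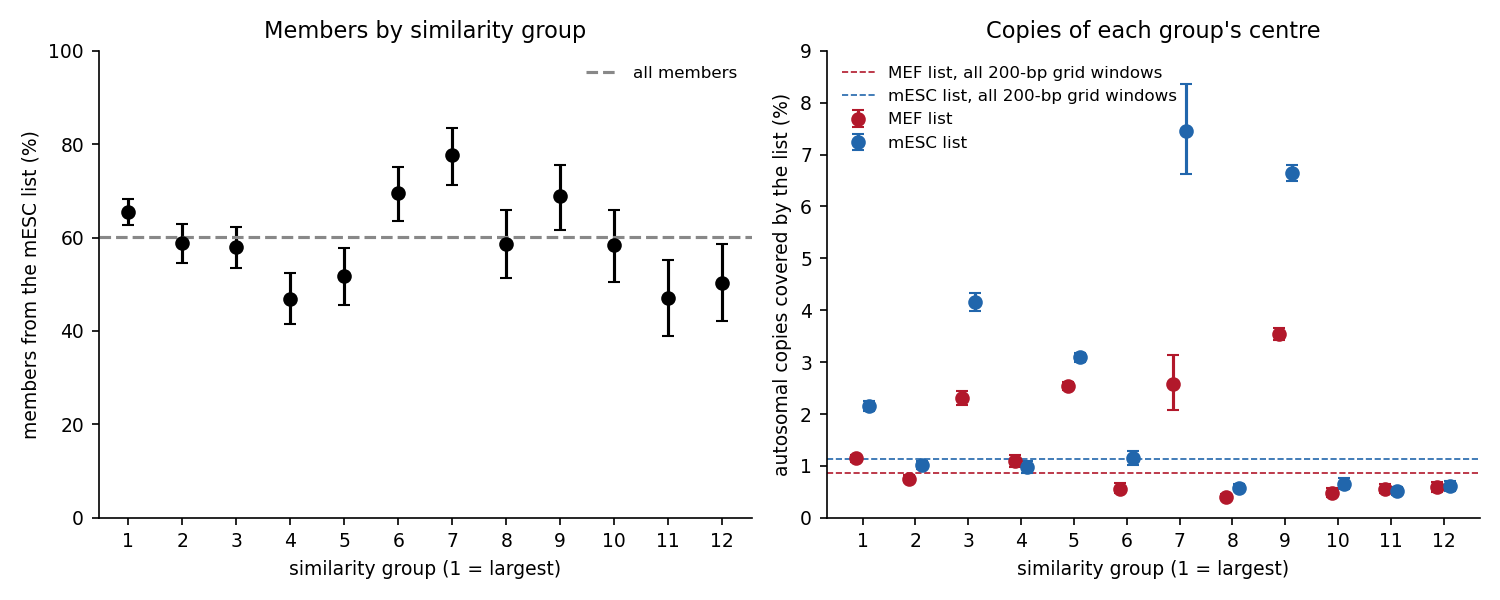
Left: percentage of members that came from the mESC list (y axis) in the 12 largest similarity groups (x axis), with exact 95% binomial intervals; the dashed line is the 60.2% of all members. Right: percentage of autosomal copies of each group's central sequence that were covered by the MEF list (red) or the mESC list (blue), with the same shares of all 200-bp grid windows as dashed lines. Groups 7 and 9 stand highest in the mESC list at 7.46% and 6.65%, and groups 2, 8, 10, 11 and 12 lie below the dashed lines. Median copy length is 116 bp in group 7, 174 bp in group 9 and 290 to 303 bp in groups 2, 8, 10, 11 and 12.

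Few repeats could be named from the RefSeq annotation. Group 5 resembled B1, a SINE derived from the 7SL RNA of the signal recognition particle. The annotated B1_Mus2 copy at chr7:103823699-103823836 aligned with 177 MEF members (7.27%, 6.27 to 8.37) and 202 mESC members (5.48%, 4.76 to 6.26), at a median identity of 89.9% and 89.96%. It aligned with 2.49% of fully masked windows (2.21 to 2.79), which are shorter than most members, and with 10.9% and 10.5% of the other intervals of the lists. Of the members alike to B1, 121 of 177 in MEFs (68.4%) and 114 of 202 in mESCs (56.4%) overlapped the other list, and their median folds were 2.505 and 2.76. All 62 MEF and 50 mESC members that aligned with the 7SL gene Rn7s1 were among them. Their alignments with Rn7s1 had medians of 58 and 55 bp of its 299 bp. Bc1, a neuronal noncoding RNA gene, aligned with 31 and 40 members (1.27% and 1.08%), against 3.03% and 2.34% of the other intervals. These Bc1 alignments in members were short, with medians of 30.5 and 28 bp of its 154 bp. Of the 31 and 40 members, 17 and 17 also aligned with B1_Mus2. The annotated LTRIS4 element, an LTR, aligned with 0 MEF and 11 mESC members (0.298%, 0.149 to 0.533), against 0.0481% and 0.200% of the other intervals, and 1 of the 11 overlapped a MEF interval, against 45.0% of all mESC members. These alignments were partial, with a median of 116 bp of its 489 bp at a median identity of 77.6%. By the definition of a copy above, LTRIS4 had 51 autosomal copies, and 0 were covered in either list.

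Matches to the polymerase III boxes were uneven among the groups. An A box followed by a B box on the same strand was found in the central 200 bp of 3.00% of MEF members (2.36 to 3.75) and 4.121% of mESC members (3.503 to 4.81), against 0.776% of masked windows (0.622 to 0.957) and 1.91% and 3.05% of the other intervals. Of the members of group 9, 89 of 183 (48.6%) had the pair, and of group 3, 117 of 495 (23.6%). Over all mESC members of groups 9 and 3, with or without the pair, median folds were 2.83 (2.54 to 3.09) and 2.71 (2.59 to 2.85). The median of all mESC members was 2.52. In MEFs the medians of these whole groups were 2.48 (2.35 to 2.82) and 2.55 (2.49 to 2.66), against 2.46 for all MEF members. The motifs were searched on both strands, the B box as GTTCGANNC or GTTCAANNC and the A box as a pattern that allows several letters at most positions. The A box alone was found in 27.5% and 28.5% of members, 17.2% and 18.4% of other intervals and 20.2% of masked windows. A match says that the letters are there and not that a factor binds.

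Other motifs differed in share between members, other silencers and masked windows. GCCATNTT was found in 11.5% of MEF and 14.3% of mESC members, 4.48% and 4.49% of other intervals and 9.48% of masked windows. Outside group 1 it was found in 2.54% and 3.02% of members. TGANTCA, the AP-1 site of Fos and Jun proteins, was found in 1.56% and 1.55% of members, against 6.46% and 5.71% of other intervals and 2.74% of masked windows. AGATAA was found in 7.06% and 6.29% of members, 13.6% and 13.7% of other intervals and 9.69% of masked windows, and these are letters that the GATA factors bind. GGAATG was found in 16.2% and 18.0% of members, 10.8% and 10.9% of other intervals and 10.2% of masked windows. CCAAT, the 5 letters bound by NF-Y, was common in all masked sequence, at 45.5%, 46.2% and 42.1%, and less so in other intervals (29.3% and 29.2%). TATAAA was found in 35.4% of the MEF members that overlapped the mESC list and in 24.7% of those that did not.

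By the midpoint of the interval and GENCODE vM21, 65.8% of MEF members and 66.02% of mESC members were intergenic, and 32.1% and 31.6% were intronic. Fully masked windows were alike (69.5% and 28.9%), and the intronic share of other intervals was larger (45.9% and 46.7%). No member had its midpoint in a coding exon, which allows shares of up to 0.123% and 0.0813%. Among fully masked windows 1 did (0.00892%), and among other intervals 0.588% and 0.621% did. Within 1 kb of a start site lay 1.602% and 1.76% of members, against 3.404% and 3.44% of other intervals and 1.32% of masked windows. In all, 3 members lay within 500 bp of the start site of a gene annotated as protein-coding. The MEF member chr19:53589157-53589507 (fold 2.24) was 89 bp from the start of Nutf2-ps1, and chr7:127519067-127519317 (fold 2.197) was 268 bp from that of Gm42715. The mESC member chr5:138156117-138156367 (fold 2.24) was 373 bp from the start of Zfp113, which encodes a zinc finger protein.

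Of 20807 protein-coding autosomal genes, 1055 (5.07%) held a member in their body. Cntnap2, a neurexin-family adhesion gene with a body of 2245 kb, held the most, with 6 in the MEF list and 4 in the mESC list beside 111 other intervals. March1, a ubiquitin ligase of antigen presentation, and Naaladl2 held 9 each, and Malrd1 held 8. Gm20388, Gpc5 (a glypican), Iqcm, Lrp1b (an LDL receptor family member), Magi2 (a synaptic scaffold) and Nkain2 held 7 each. All of these bodies exceeded 500 kb. By density among bodies of 50 kb or more, Agxt2, an aminotransferase gene, came first with 3 members in 51.6 kb. Vmn2r57, a vomeronasal receptor gene, Erap1, an aminopeptidase that trims antigenic peptides, and Pigl, an enzyme of GPI anchor synthesis, also held 3 each. Mug2, a murinoglobulin gene of 79.2 kb, held 4 members and 0 other intervals.

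Genes whose products keep transposons silent or restrict them were compared as a list. Of 42 genes 39 were autosomal and protein-coding in the annotation, and 6 of them (15.4%) had a member in the body or within 10 kb of it, against 8.13% of all protein-coding genes. Their regions were also longer, with a median of 57.5 kb against 37.6 kb. Members made up 8 of the 210 intervals of 200 bp or more in these regions (3.81%), close to the 3.68% over all protein-coding genes. Trim33, a TRIM-family chromatin regulator, was the gene of the list with 2 or more members, with 1 in the MEF list and 2 in the mESC list beside 7 other intervals. The other 5 genes had 1 member each, all in the mESC list: Trim28, the corepressor that KRAB zinc finger proteins recruit, Morc3, Sirt6, and the germline genes Mael and Piwil2 of the piRNA pathway. These 5 are named after their values were seen.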

How the data were processed

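The data are 2 lists of silencer intervals from Ss-STARR-seq, 1 for MEFs and 1 for mESCs, each with a fold (a linear ratio) that the authors deposited and that exceeds 2 throughout. The submitters' processing notes name Bowtie2 and SAMtools without versions. They give hg38 as the build, but mm10 stands in the design text, and the chromosome names and ends fit the mouse assembly. Not given in the sources used here are the caller, its filters, which libraries were divided and how replicates were combined.

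Starts were taken as 1-based, and length as end minus start. Masking, sequence and copy number came from RefSeq GRCm38.p6 without patches. Copies of 31-mers and 100-mers were counted on both strands. Sequences were aligned with BLAST 2.17.0 and grouped greedily at 80% identity over 50% of the shorter one, around centres of at most 300 bp, a limit set after the groups were seen. Motifs were searched in the central 200 bp. Genes came from GENCODE vM21 (basic). Shares have exact Clopper-Pearson 95% intervals, and medians exact order-statistic intervals, which cover counting error only. No statistical test was made. Python 3.11.15, numpy 2.4.6, pandas 2.3.3, scipy 1.17.1 and numba 0.67.0 were used, and the functions were tested on simulated sequence.

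The members, gene list and motifs were chosen with earlier results of these data known. Regions named are, per list, the 5 highest folds, the 3 longest and the 3 of highest copy number, and the 5 sites with the same ends in both lists and the highest lower fold. Genes named are those with a member within 500 bp of a start site, the 10 with most members, the 5 densest of 50 kb or more, and control-list genes with 2 or more members. Members on chromosome 18 and sequences longer than 300 bp were not printed as sequence.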

Additional observations from a re-analysis of the deposited data

How the results depend on the processing

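Values below are for MEFs, then mESCs. The higher median fold of members than of other intervals kept its direction in both lists under every alternative run, as did the higher overlap of MEF members and the lower overlap of mESC members. The last does not hold in every subset: within 4 of 6 length classes and in the lowest fold quintile (30.96% against 29.4%) the mESC member share was the higher. The member share moved to 7.51% and 8.78% at 95% masking, to 4.34% and 5.119% at a minimum of 250 bp, to 9.25% and 10.0% with no minimum length, and to 6.21% and 7.00% over folds at or above the list median. It was 0.520% and 0.624% among intervals with 50% or more of their 31-mers at 1 place, and 4.43% and 5.01% with 50% or more of their 100-mers at 1 place, the last chosen after seeing the data.

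The overlap share of members moved to 66.7% and 47.7% at 250 bp, 48.8% and 30.9% with no minimum length, 71.5% and 52.6% over the higher folds, 57.6% and 38.3% where 50% of both intervals had to overlap, and 59.01% and 42.3% in the 31-mer subset. Its difference from other intervals, 7.94 and -1.15 percentage points as reported, became 1.76 and -6.30 with no minimum length, 2.95 and -4.96 over the higher folds, and 3.77 and -3.78 in the 31-mer subset. The median fold became 2.86 and 3.01 over the higher folds and 2.43 and 2.599 in the 31-mer subset, and 2.58 in mESCs with no minimum length. Its difference from other intervals, 0.133 and 0.135 as reported, became 0.108 and 0.228 in the 31-mer subset, and 0.182 in mESCs with no minimum length. The share of words at 1 place was 98.4% and 98.0% for 100-mers and 25.9% and 25.5% for members at 95% masking. At 90% identity 265 groups were found against 124. Which property of the subsets moves these values was not tested.

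No member matched itself at the tandem threshold of 80% or 90%, so leaving such members out removed none and tested nothing; the highest self-match of a member was 79.9%, just under the lower one. No paired analysis was possible because the lists hold no value per library, and for the same reason no library was left out and the depth behind a fold is unknown.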
